A study of Mus musculus with 36 samples.

Results

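Lipolysis is the stepwise hydrolysis of stored triglyceride, and 9 genes of that reaction and its adrenergic control were followed through 3 diet regimens in mouse liver and epididymal white adipose tissue (eWAT). The genes were picked by name: the lipases Pnpla2, Lipe and Mgll, the patatin-family enzyme Pnpla3, the lipase coactivator Abhd5, the lipid droplet coat gene Plin1, the receptors Adrb3 and Adora1, and the cyclic AMP phosphodiesterase Pde3b. They are 9 of the 17536 genes listed in the tables of either tissue, and they were chosen with earlier results of these data known. On build GRCm38 the 3 lipase genes are Pnpla2 (ENSMUSG00000025509.15) at chr7:141455198-141460743 (+), Lipe (ENSMUSG00000003123.15) at chr7:25379527-25398710 (-) and Mgll (ENSMUSG00000033174.17) at chr6:88724412-88828360 (+). The droplet-bound group is Abhd5 (ENSMUSG00000032540.16) at chr9:122351608-122381524 (+), Plin1 (ENSMUSG00000030546.14) at chr7:79720218-79732903 (-) and Pnpla3 (ENSMUSG00000041653.5) at chr15:84167837-84187236 (+). The receptors and the phosphodiesterase are Adrb3 (ENSMUSG00000031489.15) at chr8:27225776-27250616 (-), Pde3b (ENSMUSG00000030671.9) at chr7:114415281-114539251 (+) and Adora1 (ENSMUSG00000042429.8) at chr1:134199223-134235431 (-). The eWAT table holds all 9, and the liver table holds 8, without a row for Plin1. RNA-seq had been run on wild-type C57BL/6 male mice of the F0 generation, aged 24 weeks, that ate chow from weaning until 6 weeks of age. Feeding then lasted another 18 weeks, on low-fat food throughout (LF), on high-fat food throughout (HF), or on high-fat food for the first 9 weeks and low-fat food for the last 9 (HFLF). Each tissue has 6 libraries per regimen, 36 libraries in all. The labels do not say whether every library is a separate mouse or whether a liver and an eWAT library share a mouse, so the p-values measure the spread between libraries.

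In an adipocyte the triglyceride sits in a droplet coated by perilipin 1, which holds the coactivator ABHD5 away from the lipase while the cell is at rest. Noradrenaline acts on β-adrenergic receptors, mainly the β3 receptor in rodent fat, raises cyclic AMP and switches on protein kinase A, which phosphorylates perilipin 1 and hormone-sensitive lipase and frees ABHD5. Adipose triglyceride lipase, hormone-sensitive lipase and monoacylglycerol lipase then release the fatty acids in turn. Insulin brakes the chain through phosphodiesterase 3B, which degrades cyclic AMP, and adenosine brakes it through the Gi-coupled A1 receptor. In liver the same lipases act on droplets of hepatocytes.

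Expression is given as CPM, counts on a per-million scale of the library, after scaling with trimmed means of M-values (TMM) within a tissue. A gene was called changed when edgeR's quasi-likelihood test gave a Benjamini-Hochberg adjusted p under 0.05 over all genes of the table. Library totals ran from 11662551 to 23295485 counts in liver and from 8941798 to 31186477 in eWAT. The defining adipocyte genes were present in every eWAT library and the defining hepatocyte genes in every liver library. In liver the 10 stress and acute phase genes were lower in both HF and HFLF than in LF, and their summed level was 6409 to 23880 CPM in LF, against 3936 to 6440 CPM in HF and 5600 to 7382 CPM in HFLF. Liver LF libraries 1 to 4 stood apart in these genes, with Mt2, a metallothionein, at 354 to 422 CPM against 0.601 to 9.33 in the other 14 liver libraries, so the liver results of the members and the pathway lists are also given without them. The part of those libraries' state in the liver results was not tested. The tables give no strand for the counting, and exons of Lipe, Mgll, Abhd5, Adrb3 and Adora1 overlap a gene on the other strand, while an exon of Pnpla3 overlaps the predicted gene Gm49513 on its own strand. Reads of such partners cannot be told apart here.

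The upstream sequences of 4 of the 7 members that were lower in eWAT under HF are shown. They let a reader compare the letters before the start of genes whose levels fell there. They come from RefSeq on build GRCm38.p6, where 7 of the 9 members have an entry, with 10 windows between them. Adrb3 and Pde3b have none. Abhd5, also lower in eWAT under HF, has an entry, but its stretch is not printed. The motifs of its window and of the window of the outer Lipe start are given below. The stretches lie within the 250 bases before the annotated start and in no exon of the GENCODE M21 annotation, read 5′ to 3′ on the gene's strand. They are Pnpla2 at chr7:141454938-141455187 (+), Lipe before its inner start at chr7:25390113-25390351 (-), Plin1 at chr7:79732904-79733026 (-) and Pnpla3 at chr15:84167566-84167815 (+). Capitals mark matches on either strand to any of the 10 motifs searched.
Pnpla2: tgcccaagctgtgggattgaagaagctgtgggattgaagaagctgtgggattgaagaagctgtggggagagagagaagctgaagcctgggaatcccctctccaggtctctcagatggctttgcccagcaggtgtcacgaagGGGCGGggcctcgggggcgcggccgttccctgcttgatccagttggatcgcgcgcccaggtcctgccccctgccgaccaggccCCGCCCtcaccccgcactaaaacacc
Lipe: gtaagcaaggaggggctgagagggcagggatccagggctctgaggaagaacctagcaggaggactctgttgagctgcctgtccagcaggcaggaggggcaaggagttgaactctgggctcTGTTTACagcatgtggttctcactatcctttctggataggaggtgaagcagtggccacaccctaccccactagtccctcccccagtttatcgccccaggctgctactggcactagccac
Plin1: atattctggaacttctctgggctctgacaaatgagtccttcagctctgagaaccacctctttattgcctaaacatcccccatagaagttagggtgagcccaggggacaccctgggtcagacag
Pnpla3: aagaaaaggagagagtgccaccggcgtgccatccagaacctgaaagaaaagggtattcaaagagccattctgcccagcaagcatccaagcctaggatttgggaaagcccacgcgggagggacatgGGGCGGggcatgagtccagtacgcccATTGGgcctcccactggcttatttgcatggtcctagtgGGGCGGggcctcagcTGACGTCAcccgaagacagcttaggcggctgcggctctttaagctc

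The motifs were searched in the whole 300-base window, from 250 bases before to 50 after the start, and in all 32851 windows of that table. The cyclic AMP response element TGACGTCA is in 1.79% of windows, and among the members' windows it is in that of Pnpla3, with its first base 46 bases before the start. Its shorter form TGACG, in 20.8% of windows, overlaps it there on both strands and also lies in the Abhd5 window and in 1 of the 2 Mgll windows. The GC box GGGCGG, in 35.7% of windows, occurs 109 and 26 bases before the Pnpla2 start and 125 and 61 bases before that of Pnpla3, and it also lies in windows of Lipe (outer start), Mgll, Abhd5 and Adora1. The fork head motif GTAAACA, in 3.65% of windows, is 119 bases before the inner Lipe start on the reverse strand and also lies in 1 of the 2 Mgll windows. The CCAAT box, in 37.4% of windows, is 99 bases before the Pnpla3 start. The Plin1 window holds none of the 10. No member's window holds the direct repeat bound by PPARs (0.0396% of windows), the sterol regulatory element (0.0913%), the glucocorticoid response element (0.00913%) or the TATA box TATAAA (13.6%). The E-box CACGTG, in 7.15% of windows, is in the window of the outer Lipe start and in 1 of the 2 Mgll windows.

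Per kilobase of merged exons, Pnpla2 was the most abundant member in eWAT of LF mice, at 1200 ± 256 CPM per kb (SD, n = 6). Plin1 followed at 670 ± 146. Adrb3 at 474 ± 137, Pnpla3 at 457 ± 119, Lipe at 440 ± 103 and Mgll at 358 ± 73.0 came next. Within ± SD, neighbours among these overlapped. The genes share their libraries, and differences between genes within a library were not tested. Pde3b at 43.6 ± 7.83, Abhd5 at 25.3 ± 6.01 and Adora1 at 15.1 ± 3.88 were the lowest of the members. In liver of LF mice Mgll at 44.4 ± 8.22 and Pnpla2 at 38.0 ± 5.93 CPM per kb led, within their spread of each other. Pde3b and Abhd5 followed at 6.80 ± 0.724 and 6.28 ± 1.39, then Pnpla3 at 3.92 ± 1.25, Adrb3 at 2.897 ± 0.866, Lipe at 2.58 ± 0.370 and Adora1 at 1.998 ± 0.890. Lipe was among the 3 lowest members per kilobase in liver. The scaling was done within each tissue, so levels across tissues were not tested.

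In eWAT, 7 of the 9 members were lower under continued high-fat feeding than under low-fat feeding and none was higher. Of all genes 40.8% were called, 20.6% higher and 20.2% lower, and the members' median log2 change was -0.83 beside -0.02 over all genes. Since the members were chosen with earlier results of these data known, the comparison with all genes is a description. The drop was largest for the receptor Adrb3 and reached the lipases Pnpla2 and Lipe, the droplet coat Plin1, the brake Pde3b, Pnpla3 and, at the edge of the threshold, Abhd5. Mgll and Adora1 did not pass.

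Pnpla2 encodes adipose triglyceride lipase, which takes the first fatty acid off a triglyceride. Its eWAT level ran from 2617 to 4571 CPM with a median of 3747 in LF, from 976.8 to 2427 with a median of 1462 in HF, and from 2376 to 3254 with a median of 2907 in HFLF. Every HF library lay below every LF library, a gap that none of the other 8 members had and that 15.8% of all genes had. The log2 change from LF to HF was -1.15 ± 0.21 (SE, adjusted p = 0.000467). Lipe encodes hormone-sensitive lipase, which takes the next fatty acid. Its level ran from 1789 to 3409 CPM (median 2732) in LF, from 706 to 2208 (median 1430) in HF and from 2001 to 2541 (median 2390) in HFLF. The HF libraries ranged into the lower LF values, and the log2 change was -0.83 ± 0.24 (adjusted p = 0.0104). Mgll encodes monoacylglycerol lipase, which frees the last fatty acid and the glycerol. Its means were 1815 ± 371 CPM in LF, 1879 ± 636 in HF and 2010 ± 268 in HFLF (SD, n = 6). The HF against LF log2 difference of 0.05 (adjusted p = 0.870) had a 95% interval from -0.37 to 0.47.

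Abhd5, the coactivator, ran from 110.6 to 195.3 CPM (median 143) in LF, from 101 to 132.1 (median 111) in HF and from 90.5 to 154.7 (median 131) in HFLF. Its groups overlapped, and the log2 change from LF to HF was -0.40 ± 0.15 (adjusted p = 0.0422). That call was lost when any of 11 single libraries was left out (adjusted p 0.05002 to 0.135): LF 1, 2, 3 or 6, HF 2, 3, 4 or 5, or HFLF 3, 5 or 6. Plin1, the perilipin 1 gene, ran from 2074 to 3911 CPM (median 3336) in LF, from 1038 to 2589 (median 1864) in HF and from 2208 to 2979 (median 2671) in HFLF. The HF range reached into that of LF, and the log2 change from LF to HF was -0.72 ± 0.20 (adjusted p = 0.00931). Pnpla3, whose product is a droplet-bound relative of adipose triglyceride lipase, ran from 452.8 to 872 CPM (median 786) in LF, from 113 to 469.1 (median 240.3) in HF and from 223.5 to 567.4 (median 350) in HFLF. HF 5 reached the lowest LF value, and the log2 change from LF to HF was -1.39 ± 0.31 (adjusted p = 0.00222).

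Adrb3 encodes the β3-adrenergic receptor. Its eWAT level ran from 949.7 to 1956 CPM with a median of 1833 in LF, from 99.8 to 1049 with a median of 295 in HF, and from 880.8 to 1601 with a median of 1377 in HFLF. In HF, libraries 1, 3 and 4 lay between 99.8 and 123 CPM, while libraries 2, 5 and 6 lay between 466 and 1049, and HF 5 was above the lowest LF library. The log2 change from LF to HF was -1.98 ± 0.49 (adjusted p = 0.00454), a ratio of means of 0.254. Pde3b, which carries the insulin signal to cyclic AMP, ran from 306.2 to 505.9 CPM (median 403) in LF, from 100.6 to 309.3 (median 160) in HF and from 281 to 480.2 (median 369) in HFLF. HF 5 alone reached into the LF range, and the log2 change was -1.07 ± 0.23 (adjusted p = 0.00171). Adora1, the adenosine A1 receptor, ran from 60.5 to 116.2 CPM (median 90.5) in LF, from 71.2 to 150.4 (median 124) in HF and from 45.7 to 93.1 (median 83.4) in HFLF. Its HF against LF log2 difference of 0.44 ± 0.20 did not pass (adjusted p = 0.0847), and it passed without LF 6 (0.55, adjusted p = 0.0368) or without HF 3 (0.56, adjusted p = 0.0266). The difference also passed in 2 of 11 alternative settings, the fit with a marker covariate given below among them.

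**Figure D1:**
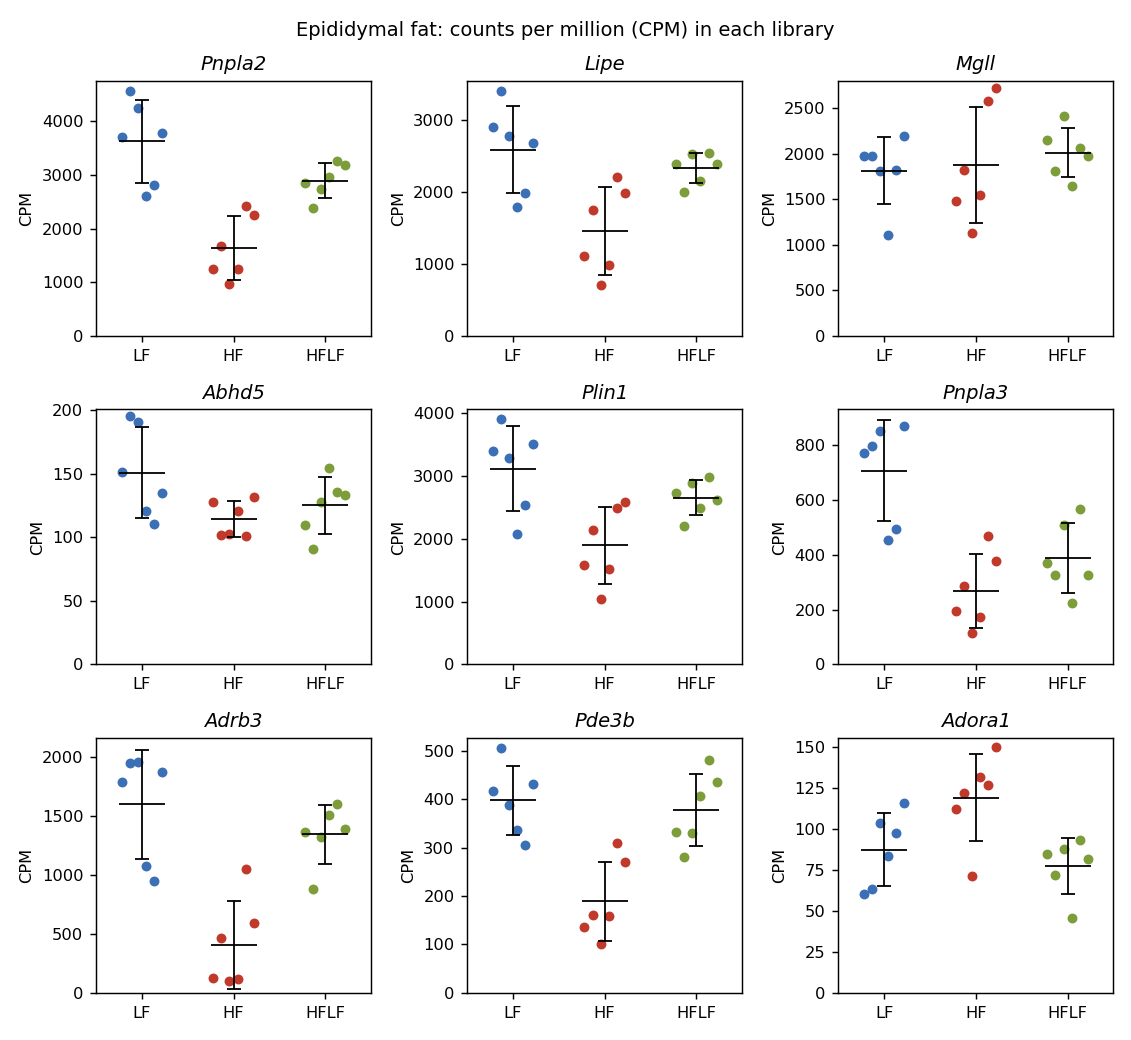
Level of each of the 9 genes in epididymal fat, as CPM on a linear axis from 0, in 6 libraries per regimen (LF, HF, HFLF). Points are libraries, the long bar is the mean and the whiskers are ± SD. For Adrb3, 3 HF libraries sit near 100 CPM (99.8 to 123) and the highest HF library reaches 1049, while the ranges of Mgll overlap between all regimens.

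Markers of adipocytes and of some other cell types moved with these changes in eWAT. None of 5 endothelial, 6 lymphocyte or 4 mesothelial markers was called between HF and LF. Of 10 adipocyte markers, 6 were lower and 1 was higher in HF than in LF, and their summed level ran from 33940 to 67470 CPM in LF, from 11160 to 41100 in HF and from 34760 to 51100 in HFLF. The marker Adipoq, an adipocyte hormone, was at 790 to 1166 CPM in HF 1, 3 and 4 and at 2232 to 2981 in HF 2, 5 and 6, and at 2113 to 4019 in LF. Macrophage markers, 7 of 8 of them measured and Clec4f without a row, ran in sum from 399 to 800 CPM in LF, from 967 to 5844 in HF and from 707 to 2073 in HFLF. Of these, 6 were higher in HF than in LF. Of 6 fibroblast markers 3 were higher, with sums from 2207 to 3044 CPM in LF and from 3328 to 11850 in HF. Of 12 epididymis markers 4 were measured and 2 were lower in HF, with sums from 2.77 to 239.6 CPM in LF, from 1.72 to 17.8 in HF and from 2.17 to 58.1 in HFLF. Of 8 hepatocyte markers 7 were measured and 2 were lower in HF, with sums from 3011 to 7764 CPM in LF, from 31.2 to 1323 in HF and from 896 to 3297 in HFLF. Most of that sum was Cyp2e1, a cytochrome P450 gene that is also expressed outside hepatocytes, with a median share of 96.01% in LF and 92.15% in HF, while albumin (Alb) was at 27.55 to 666 CPM in LF and 2.55 to 99.29 in HF. Of 3 smooth muscle markers 2 were lower in HF, Myh11 at -2.69 (adjusted p = 0.00621) and Tagln at -1.77 (adjusted p = 0.00437), with sums from 174.1 to 3138 CPM in LF and from 147.5 to 422 in HF. The part of these other cells in the results of the members and of the pathway lists was not tested. In these bulk samples, fewer adipocytes and less RNA per adipocyte cannot be told apart.

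Set against Adipoq in the same library, the members differed in pattern. Lipe had a median of 81.2 CPM per 100 CPM of Adipoq in LF, 83.6 in HF and 66.3 in HFLF, with overlapping ranges. Adrb3 had medians of 49.95, 16.8 and 36.04 in the same order, with HF ranging from 10.2 to 35.2 and LF from 34.9 to 58.6. Pnpla3 had medians of 21.6 in LF, 15.2 in HF and 10.5 in HFLF, with HF ranging from 12.8 to 16.8 and LF from 18.2 to 25.4. Mgll was at a median of 54.3 in LF, 116 in HF and 59.1 in HFLF, and Adora1 at 2.99, 7.44 and 2.29. Mgll ran from 81.5 to 143 in HF and 52.7 to 66.7 in LF, and Adora1 from 4.25 to 11.8 and 1.66 to 3.95. The HF and LF ranges of Pnpla2, Plin1, Pde3b and Abhd5 overlapped. Pnpla2 ran from 75.05 to 123.7 in HF and 94.13 to 137 in LF, and Plin1 from 83.66 to 136.2 and 87.06 to 117.2. Pde3b ran from 7.216 to 14.17 in HF and 10.71 to 15.87 in LF, and Abhd5 from 3.387 to 12.96 and 3.351 to 5.855. Adipoq itself was measured in the same libraries and differed between regimens, so these ratios are a description. It was lower in HF than in LF, at -0.82 (edgeR adjusted p = 0.0243), so a gene with unchanged CPM is higher on this scale. How many of all genes separate HF from LF on this scale was not counted.

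A fit that carried the libraries' mean log2 level of the 10 adipocyte markers as a covariate, added after the data were seen, gave other calls for HF against LF. Pnpla2 at -0.53 ± 0.12 (adjusted p = 0.00726) and Adrb3 at -0.85 ± 0.26 (adjusted p = 0.0270) were again lower. Lipe at -0.08 ± 0.09 (adjusted p = 0.562) and Plin1 at -0.06 ± 0.09 (adjusted p = 0.657) were close to 0. Pde3b at -0.45 (adjusted p = 0.0688), Pnpla3 at -0.49 (adjusted p = 0.0793) and Abhd5 at -0.28 (adjusted p = 0.335) no longer passed. Mgll at 0.67 ± 0.12 (adjusted p = 0.00231) and Adora1 at 0.75 ± 0.24 (adjusted p = 0.0332) were higher in HF at a given marker level. In that fit 4148 of the 16690 genes were called. The marker genes differ between the regimens themselves, so the covariate and the diet overlap.

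**Figure D2:**
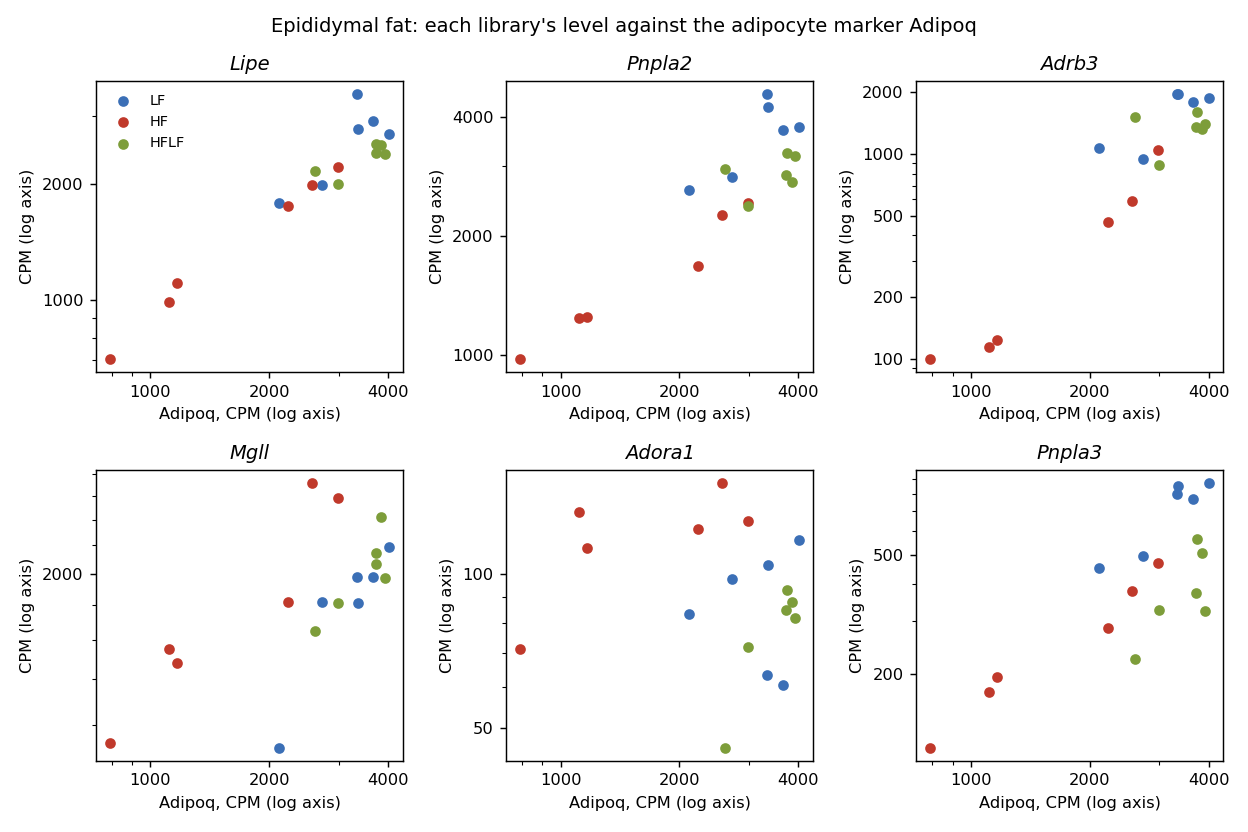
Level of 6 of the genes against the adipocyte marker Adipoq in each eWAT library, both as CPM on log axes, with LF, HF and HFLF libraries coloured. HF libraries 1, 3 and 4 sit at the low end of Adipoq (790 to 1166 CPM). Lipe rises with Adipoq across all regimens. Per 100 CPM of Adipoq, Mgll ran from 81.5 to 143 in HF and from 52.7 to 66.7 in LF. Adora1 ran from 4.25 to 11.8 in HF and from 1.66 to 3.95 in LF. Adipoq itself was lower in HF than in LF.

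After the switch to low-fat diet, 4 of the 9 members were higher in HFLF than in HF in eWAT and 1 was lower, beside 25.4% of all genes called, 10.7% higher and 14.7% lower. Adrb3 was higher by 1.73 ± 0.49 on the log2 scale (adjusted p = 0.0166), from a mean of 407 ± 377 CPM in HF to 1345 ± 250 in HFLF (SD, n = 6). Pde3b was higher by 1.00 ± 0.23 (adjusted p = 0.00606), from 189 ± 81.5 to 377 ± 75.0 CPM. Pnpla2 was higher by 0.82 ± 0.21 (adjusted p = 0.00903), from 1638 ± 592 to 2897 ± 322 CPM. Lipe was higher by 0.68 ± 0.24 (adjusted p = 0.0444), a call lost when any of 11 single libraries was left out: LF 1, 3 or 6, HF 1, 3 or 4, or HFLF 1, 3, 4, 5 or 6 (adjusted p 0.0505 to 0.102). Adora1 was lower, at -0.62 ± 0.20 (adjusted p = 0.0311), and lost its call without HF 4, HF 6, HFLF 2 or HFLF 4 (adjusted p 0.0541 to 0.0645). The groups overlapped for every member, and 9.44% of all genes had a gap. Plin1 at 0.48 (adjusted p = 0.0853; called by DESeq2 at 0.0476, by limma at 0.0406, and without HF 5 or HF 6 at 0.0420 and 0.0378), Pnpla3 at 0.53 (adjusted p = 0.225), Abhd5 at 0.13 (adjusted p = 0.55) and Mgll at 0.10 (adjusted p = 0.757) did not pass. A further fit left out 6 eWAT libraries together (LF 3, 4 and 5, HF 1, HFLF 4 and 6), which leaves 12 libraries. Those left out were picked from earlier results, and no criterion for the choice is given here. None of the 9 passed in that fit, which called 1390 of the 16690 genes. Its log2 differences were 1.48 for Adrb3 (adjusted p = 0.103) and 0.83 for Pde3b (adjusted p = 0.0788). With the marker covariate 520 genes were called. Among the members these were only Mgll at -0.46 (adjusted p = 0.0447) and Adora1 at -0.91 (adjusted p = 0.0473), both lower in HFLF.

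Against LF, no member was called in HFLF in eWAT by edgeR, where 0.563% of all genes were called (94 of 16690, with 0.342% higher and 0.222% lower). There were 3028 genes and 1 member at an unadjusted p under 0.05, and 2.56% of all genes had groups that did not overlap. That member was Pnpla3, which had the largest difference, -0.87 ± 0.31 on the log2 scale (adjusted p = 0.165), with means of 388 ± 128 CPM in HFLF and 707 ± 185 in LF (SD, n = 6). DESeq2 called 0 members and limma with quality weights called Pnpla3 (-0.95, adjusted p = 0.0430), as did the fit with the marker covariate (-0.78, adjusted p = 0.0149). The other log2 differences lay between -0.32 for Pnpla2 and 0.15 for Mgll. The 95% interval for Adrb3 ran from -1.26 to 0.75. The 3 comparisons share their groups, so the values of HF against LF and of HFLF against HF are not independent of each other.

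In liver, 5 of the 8 measured members differed between HF and LF, where 34.8% of all genes were called, 16.3% higher and 18.5% lower. Adora1, Lipe and Mgll were higher in HF, and Pnpla3 and Abhd5 were lower. With LF 1 to 4 left out, 2 LF libraries remained, 297 genes were called in all, and Lipe was the 1 member called.

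Lipe ran from 12.3 to 17.7 CPM (median 15.7) in LF, from 27.1 to 38.6 (median 31.1) in HF and from 23.7 to 29.9 (median 26.4) in HFLF. No LF library reached an HF or HFLF library. The log2 change was 1.07 ± 0.10 from LF to HF (adjusted p = 9.6e-06), a ratio of means of 2.09, and the change was 1.10 ± 0.14 without LF 1 to 4 (adjusted p = 0.00259). Lipe is expressed at far higher levels in adipocytes than in hepatocytes, and adipocyte markers were also higher in liver HF, with 5 of the 6 measured called. Adipoq, Retn, Adig and Lep, the markers most specific to adipocytes, have no row in the liver table. The summed level of the 6 measured ran from 881 to 3830 CPM in LF, from 2796 to 5252 in HF and from 1896 to 2735 in HFLF. Nearly all of it was Car3, which hepatocytes also express, and without Car3 the highest marker level in a liver library was 75.7 CPM, for Cfd in HF. Their part in the Lipe result was not tested.

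Adora1 ran from 5.01 to 19.6 CPM (median 10.97) in LF, from 28.4 to 51.1 (median 46.7) in HF and from 9.62 to 36.2 (median 28.5) in HFLF. All HF libraries lay above all LF libraries, and the log2 change was 1.88 ± 0.31 (adjusted p = 0.000521). Without LF 1 to 4 it was 1.32 ± 0.39 (SE, adjusted p = 0.0947). Mgll ran from 179 to 275.3 CPM (median 225) in LF, from 294.8 to 420.5 (median 335) in HF and from 218.2 to 331.5 (median 267) in HFLF. Again no HF library reached into LF, and the log2 change was 0.62 ± 0.13 (adjusted p = 0.00192), or 0.35 without LF 1 to 4 (adjusted p = 0.249). These 3 members with a gap between HF and LF stand beside 11% of all liver genes.

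Abhd5 was lower in liver HF, at 24.4 ± 2.65 CPM against 37.4 ± 8.27 in LF (SD, n = 6), a log2 change of -0.62 ± 0.15 (adjusted p = 0.00507). Its lowest LF library, at 25.5 CPM, lay inside the HF range of 20.7 to 28.5 CPM, and without LF 1 to 4 the change was -0.27 (adjusted p = 0.447). Pnpla3 counts were low in liver: 58 to 159 per library in LF, 5 to 18 in 5 of the 6 HF libraries and 112 in HF 1. The CPM values were 3.29 to 8.49 in LF, 0.252 to 1.13 in HF 2 to 6 and 5.15 in HF 1, so that HF 1 alone overlapped LF. The change from LF to HF, -1.99 ± 0.57 with all libraries (adjusted p = 0.0130), was -3.04 without HF 1 (adjusted p = 0.000683) and -1.75 without LF 1 to 4 (adjusted p = 0.241). Pnpla2 ran from 85.7 to 136.4 CPM in LF and from 96.4 to 138.2 in HF, Pde3b from 56.1 to 72.1 and from 64.7 to 79.4, and Adrb3 from 6.56 to 14.2 and from 6.20 to 16.5. These ranges overlapped, and Pnpla2 (0.01, adjusted p = 0.949), Pde3b (0.21, adjusted p = 0.0538) and Adrb3 (0.32, adjusted p = 0.385) did not pass between HF and LF. Pde3b passed without LF 2, LF 6, HF 1 or HFLF 6 (adjusted p 0.0255 to 0.0468), and also by DESeq2 (0.0445), by limma (0.0233), with upper-quartile scaling (0.0124) and among genes with a mean of at least 5 CPM (0.0221).

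**Figure D3:**
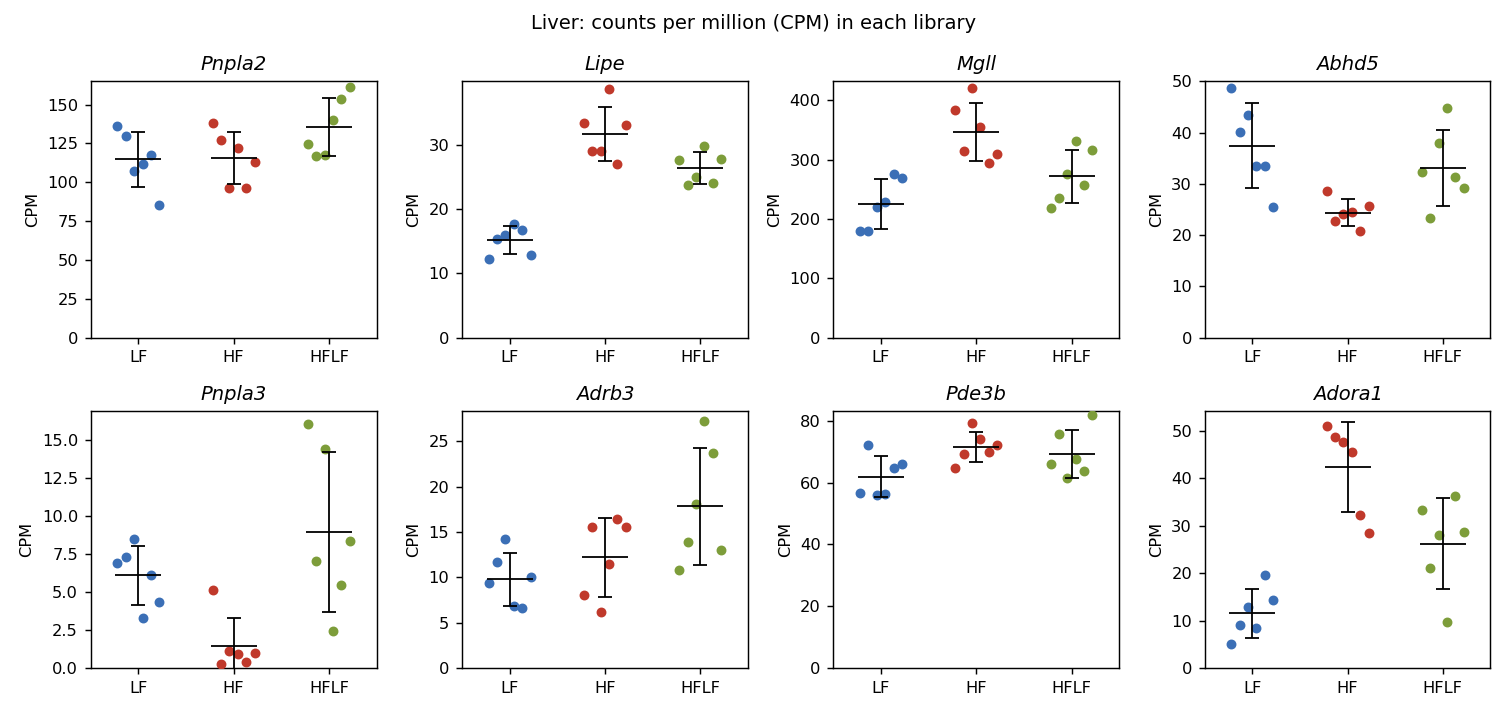
Level of the 8 measured genes in liver, as CPM on a linear axis from 0, in 6 libraries per regimen. Points are libraries, the long bar is the mean and the whiskers are ± SD. Lipe shows no overlap between LF (12.3 to 17.7 CPM) and the other regimens, and 1 HF library of Pnpla3 (5.15 CPM) lies away from the other 5 (0.252 to 1.13).

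Liver Lipe stayed higher after the switch to low-fat diet: HFLF exceeded LF by 0.80 ± 0.10 on the log2 scale (adjusted p = 0.000288) with no overlap, beside 22.6% of all genes called (10.2% higher, 12.4% lower) and 6.15% with such a gap. Without LF 1 to 4 the difference was 0.83 ± 0.14 (adjusted p = 0.0383). HFLF against HF gave -0.27 for Lipe, which did not pass with edgeR (adjusted p = 0.117) but did with limma (adjusted p = 0.0310). Mgll lay between the other regimens, at 0.27 against LF (adjusted p = 0.137) and -0.35 against HF (adjusted p = 0.119), neither called by edgeR. Limma called Mgll lower in HFLF than in HF (adjusted p = 0.0229). Adora1 was higher in HFLF than in LF by 1.18 ± 0.31 (adjusted p = 0.0131), and by 0.63 without LF 1 to 4 (adjusted p = 0.471), with HFLF 4 at 9.62 CPM inside the LF range. Adrb3 was higher in HFLF than in LF by 0.86 ± 0.27 (adjusted p = 0.0306), at 17.8 ± 6.50 against 9.78 ± 2.92 CPM, and lost its call without LF 1, LF 4, HFLF 3, HFLF 4 or HFLF 5 (adjusted p 0.0520 to 0.0684). Without LF 1 and 2, neither Adora1 (0.92, adjusted p = 0.0644) nor Adrb3 (0.92, adjusted p = 0.0812) passed, and without LF 1 to 4 Adrb3 was at 1.10 (adjusted p = 0.255). Between HFLF and HF the 1 member called was Pnpla3, higher by 2.55 ± 0.57 (adjusted p = 0.0214), beside 5.23% of all genes called, 2.18% higher and 3.05% lower, and 3.86% with a gap. Its HFLF libraries ran from 2.40 to 16.04 CPM, with HFLF 4 below HF 1, and the call was lost without HF 3 (2.48, adjusted p = 0.0532) or HF 4 (2.43, adjusted p = 0.0588). Without HF 1 the difference was 3.60 (adjusted p = 0.00364). Abhd5 did not pass (0.44, adjusted p = 0.0925) but did without LF 1 to 4 (adjusted p = 0.0495) or without HFLF 2 (0.52, adjusted p = 0.0428).

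The difference between the tissues' changes was tested in a joint fit of all 36 libraries over 13206 shared genes, which took the libraries as independent. From LF to HF it passed for 6 of the 8 members, each lower in eWAT relative to liver, beside 45.6% of all shared genes, 21% higher and 24.6% lower. Lipe moved in opposite directions, down in eWAT and up in liver, with a difference of -1.95 ± 0.27 on the log2 scale (adjusted p = 2.39e-06). The differences were -2.35 ± 0.57 for Adrb3, -1.48 ± 0.38 for Adora1, -1.33 ± 0.25 for Pde3b, -1.21 ± 0.25 for Pnpla2 and -0.62 ± 0.25 for Mgll (adjusted p = 0.0416). Those of Mgll (-0.33, adjusted p = 0.459) and Adora1 (-0.91, adjusted p = 0.115) did not pass without liver LF 1 to 4. That of Mgll did not pass with TMM factors taken within each tissue (adjusted p = 0.0531) or with DESeq2-type size factors (adjusted p = 0.0543) either. Pnpla3 and Abhd5, which were lower in HF in both tissues, gave differences of 0.52 (95% interval from -0.75 to 1.80) and 0.16 (from -0.27 to 0.60). From HF to HFLF the tissues differed for Lipe (0.96 ± 0.26, adjusted p = 0.0124), Pde3b (1.06 ± 0.25, adjusted p = 0.00443) and Pnpla3 (-1.999 ± 0.63, adjusted p = 0.0251), beside 18.0% of shared genes, 8.78% higher and 9.18% lower. Between HFLF and LF they differed for Lipe (-0.98, adjusted p = 0.0204) and Adora1 (-1.40, adjusted p = 0.0206), beside 8.56%, 3.6% higher and 4.96% lower. Without liver LF 1 to 4 they were at -0.99 (adjusted p = 0.301) and -0.82 (adjusted p = 0.492), in a fit that called 1 gene in all.

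**Figure D4:**
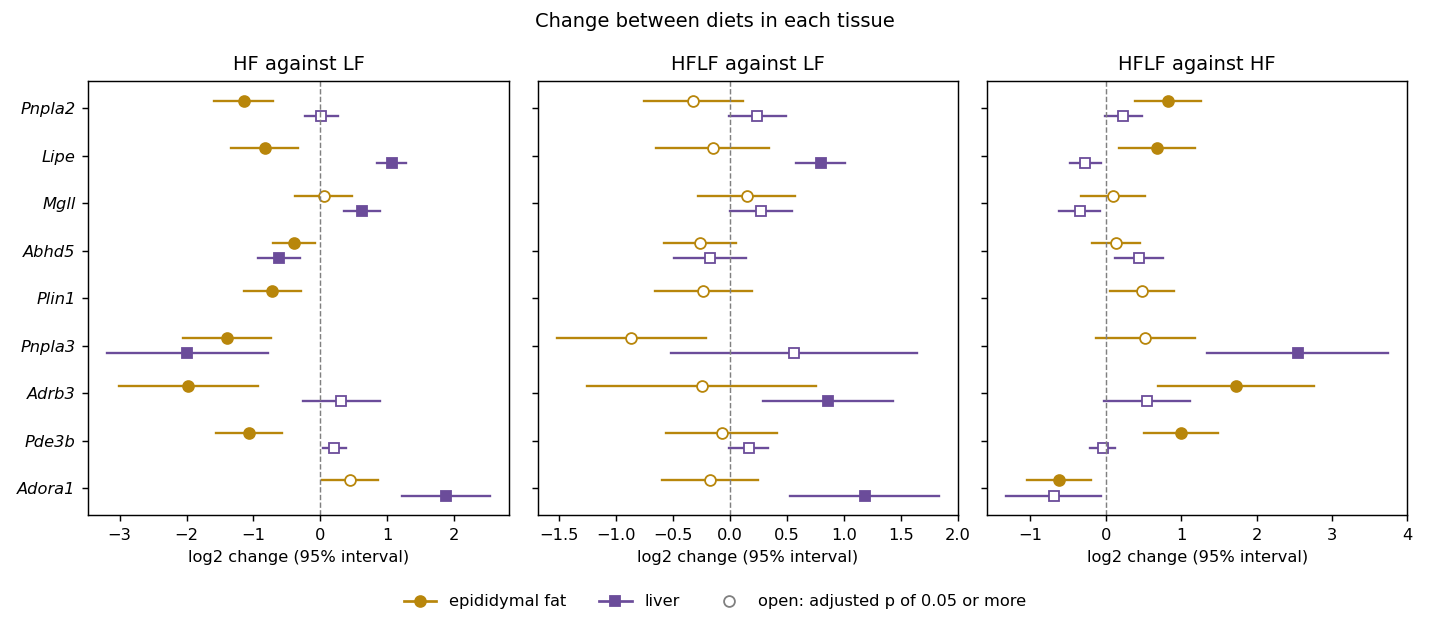
Log2 change of each gene between regimens in epididymal fat (circles) and liver (squares), with 95% intervals from the edgeR fit and filled marks for an adjusted p under 0.05. In HF against LF, Lipe lies at -0.83 in eWAT and at 1.07 in liver, and in HFLF against LF no eWAT mark is filled.

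Across the 18 eWAT libraries the levels of Lipe, Plin1, Pnpla2, Adrb3 and Pde3b followed each other. Pearson's r of log2 CPM (across libraries, n = 18) was 0.98 between Lipe and Plin1, 0.96 between Lipe and Pnpla2, 0.97 between Pnpla2 and Adrb3 and 0.97 between Pnpla2 and Pde3b. With each regimen centred on its own mean the values were 0.98, 0.95, 0.93 and 0.93. Mgll followed less closely over all libraries, at 0.65 with Lipe and 0.49 with both Pnpla2 and Pde3b, and at 0.87, 0.83 and 0.74 with the regimens centred. Abhd5 went with Lipe at 0.51, or 0.34 centred. Adora1 went with Lipe at -0.21, and at 0.34 centred, where the sign turned. In liver the same pair of Lipe and Pnpla2 gave 0.24 over 18 libraries. These values are descriptions, since the libraries share their make-up of cells and their scaling. The genes whose eWAT pattern was most like that of Lipe were Adhfe1, Acat1 and Retn (r of 0.99 each), and for Adrb3 they were Chst1 and Eci3 (0.99 each) and Pck1 (0.98), among 11286 genes over 18 libraries. For Pnpla2 they were Sh3glb2, Adig and Car5b, with r of 0.99 each. In liver, Pnpla3 was most like Scd1 (0.93), Acacb (0.92) and Galc (0.90), among 9645 genes.

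Of the other genes of the pathway, 123 were listed in 10 roles and 115 had a row in eWAT, where 26 were higher and 33 were lower in HF than in LF, with a median log2 change of -0.23 beside -0.02 over all genes. Over all eWAT genes 20.6% were higher and 20.2% lower, the background for the counts of each role. Without the 6 eWAT libraries named above, 21 of the 115 were higher and 31 lower, among them 1 and 9 of the receptors. The counts and values that follow use all libraries unless stated. Among 22 receptors, 9 were lower and 4 were higher. Adrb1, the β1-adrenergic receptor gene, was lower, with a log2 change of -0.81 ± 0.30 (adjusted p = 0.0397) from 8.29 ± 3.06 CPM in LF. The α1A receptor gene Adra1a was higher by 1.07 ± 0.23 (adjusted p = 0.00135), and the insulin receptor gene Insr was lower, at -0.65 ± 0.13 with no overlap (adjusted p = 0.000972). Among 12 cyclases and G proteins, 4 were higher and 1 was lower, with Adcy7 at 2.36 ± 0.40 and the inhibitory G protein gene Gnai2 at 0.43 ± 0.08. Among 9 phosphodiesterases other than Pde3b, 4 were higher and 1 was lower, with Pde7a at 1.29 ± 0.16 (adjusted p = 4.5e-05) and Pde7b at 0.93 ± 0.17. Both were also higher in HFLF than in LF (0.99, adjusted p = 0.0310, and 0.79, adjusted p = 0.0486). They are 2 of the 3 listed genes called in that comparison, beside 0.563% of all genes. The other, the neuropeptide Y receptor gene Npy1r, was lower, at -1.30 (adjusted p = 0.0385). With the 6 eWAT libraries named above left out, none of the 115 was called between HFLF and LF. Among 10 genes of protein kinase A, 2 were higher and 1 was lower.

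Among 9 genes of the insulin brake in eWAT, 4 were lower and 1 was higher in HF, with Pik3r1, a subunit of phosphatidylinositol 3-kinase, at -1.07 ± 0.21 (adjusted p = 0.000711) and Irs2 at -0.71 ± 0.19. The list also holds Pdk1, which in mouse is pyruvate dehydrogenase kinase 1 and not the insulin-signalling kinase, and which is 1 of the 4, at -0.76 ± 0.15 (adjusted p = 0.000978). Among 10 droplet proteins and lipase regulators, 3 were higher and 2 were lower. Plin2, the general droplet coat, was higher by 1.56 ± 0.28 and Hilpda, whose product inhibits adipose triglyceride lipase, by 1.20 ± 0.23, both with no overlap, while Cidea was lower, at -1.67 ± 0.25. G0s2, which also inhibits that lipase, was at 221 ± 74.5 CPM in HF and 233 ± 102 in LF and did not pass (adjusted p = 0.866). Of 16 other lipid hydrolases, 3 were higher, with the lysosomal lipase gene Lipa at 2.80 ± 0.42 (adjusted p = 0.000113), and 5 were lower, with Ces1f at -1.96 ± 0.35. Lipa is also abundant in macrophages, whose markers were higher in the same libraries. Their part in the changes of Lipa and of the other listed genes was not tested. Among 10 genes of catecholamine and adenosine clearance, 4 were higher and 3 were lower, with the amine oxidase gene Maob at -1.38 ± 0.25 and Nt5e, which makes adenosine outside cells, at -2.95 ± 0.61. Nt5e spread widely within LF (22.2 ± 17.4 CPM, SD, n = 6), where the epididymis markers also ran highest, and their part in its change was not tested. Of 5 genes of glycerol and fatty acid release, Fabp5 was higher (1.16 ± 0.21). Of 12 transcription factors, 7 were lower and none was higher, led by Mlxipl at -1.29 ± 0.18. In HFLF against HF, 21 of the 115 were higher and 17 were lower, beside 10.7% and 14.7% of all genes, with Adrb1 at 1.60 ± 0.31 (adjusted p = 0.00229). With the 6 eWAT libraries named above left out, 8 were higher and 5 lower.

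In liver 103 of the 123 had a row, with 31 higher and 20 lower in HF than in LF, 18 and 13 in HFLF than in LF, and 3 and 8 in HFLF than in HF. Over all liver genes 16.3% were higher and 18.5% lower, 10.2% and 12.4%, and 2.18% and 3.05% in the same order. Without LF 1 to 4 the lists gave 5 higher and 5 lower in HF than in LF, 1 and 0 in HFLF than in LF, and 7 and 10 in HFLF than in HF. The values that follow use all libraries unless stated. Among 11 droplet proteins and lipase regulators 7 were higher in HF and none was lower, among them Cidec at 2.17 ± 0.64, Fitm1 at 1.87 ± 0.33 and Plin5, which binds the lipase in oxidative tissues, at 0.56 ± 0.14. Without LF 1 to 4 none of the 11 was called between HF and LF, with Cidec at 2.46 (adjusted p = 0.245), Fitm1 at 1.49 (adjusted p = 0.141) and Plin5 at 0.36 (adjusted p = 0.355). From HF to HFLF 4 of these 11 were lower, with Plin4 at -1.92 ± 0.51 (adjusted p = 0.0393) and Cidec at -2.33 ± 0.65 (adjusted p = 0.0495, or 0.0559 without LF 1 to 4). Of 18 other lipid hydrolases 5 were higher and 1 was lower, with the monoacylglycerol hydrolase gene Abhd6 higher by 0.83 ± 0.13 (adjusted p = 0.000361, or 0.0861 at 0.54 without LF 1 to 4) and lower in HFLF than in HF, at -0.59 ± 0.13 (adjusted p = 0.0212). The insulin brake genes gave 3 higher and 4 lower, with Abhd15, a partner of phosphodiesterase 3B, at 1.31 ± 0.20 (adjusted p = 0.000305), or 0.82 without LF 1 to 4 (adjusted p = 0.0165). Pdk1, again the pyruvate dehydrogenase kinase, is 1 of the 3 higher, at 0.48 ± 0.18 (adjusted p = 0.0401). The adenylyl cyclase gene Adcy6 was higher by 1.02 ± 0.14 and Adra1a by 1.997 ± 0.27 in HF, and both were higher in HFLF than in LF, at 0.92 ± 0.14 and 1.58 ± 0.27. Without LF 1 to 4 both were again called between HF and LF, at 0.59 (adjusted p = 0.0411) and 1.26 (adjusted p = 0.0277), and neither between HFLF and LF, at 0.50 (adjusted p = 0.130) and 0.84 (adjusted p = 0.171). Adrb1 was near 1 CPM in liver and did not pass in any of the 3 comparisons (adjusted p 0.171 to 0.835).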

How the data were processed

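RNA-seq libraries of liver and eWAT, 6 per regimen and tissue, were analysed from 2 gene count tables. The authors deposited whole-number counts per Ensembl gene. STAR and GRCm38.p6 are named per the submitters' processing notes, with the counting tool, strand setting and annotation not given in the sources used here. As tested on the tables, each listed gene exceeds 0.5 CPM in 6 or more of a tissue's 18 libraries, so genes under that level have no row. The deposited RPKM tables were not used.

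Groups were taken from the labels. Each tissue was fitted on its own with edgeR 4.0.16 (R 4.3.3): TMM factors, robust quasi-likelihood, 1 coefficient per diet, 18 libraries. Differences between tissues were fitted over 36 libraries. P-values were adjusted over all genes (Benjamini-Hochberg, threshold 0.05), and intervals are at 95%. DESeq2 1.42.0, limma 3.58.1, other scalings and filters, libraries left out and a replicate block were alternatives. The steps were tested on simulated data. Python 3.11.15 made the summaries.

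The members and gene lists were chosen with earlier results of these data known. The pathway genes named were the 3 with the smallest p per role among those called, with 7 always reported, and a selection of these is printed; 1 of the 7 is not reported here. Gene lengths are merged exons of GENCODE M21. The smallest library held 8941798 counts. Among the members, liver Pnpla3 had the lowest counts, down to 5, where counting error is largest.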

Additional observations from a re-analysis of the deposited data

Results flagged for a closer look

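Among 51 groups of 6 libraries, 3 held a library whose gap to its nearest neighbour was a large share of the group's range, beside a rate of 1 in 20 by chance. In eWAT these were Mgll in LF 4 at 1112 CPM, Adrb3 in HFLF 2 at 880.8 CPM and Adora1 in HFLF 4 at 45.74 CPM, each the lowest of its group.

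The change between regimens differed between eWAT and liver by the test of the difference itself. From LF to HF, the eWAT change minus the liver change was -1.95 for Lipe, -2.35 for Adrb3, -1.48 for Adora1, -1.33 for Pde3b, -1.21 for Pnpla2 and -0.62 for Mgll on the log2 scale. From HF to HFLF it was 0.96 for Lipe, 1.06 for Pde3b and -1.999 for Pnpla3. Between HFLF and LF it was -0.98 for Lipe and -1.40 for Adora1. Without liver LF 1 to 4, the calls of Mgll and Adora1 from LF to HF were lost, as were both calls between HFLF and LF. That of Mgll was also lost with other scalings, as given above.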

How the results depend on the processing

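Over all alternatives, 1509 member values kept their direction and their side of the threshold, 66 lost and 30 gained a call, and 18 changed sign. Leaving out 1 library at a time gave 5845 to 7113 called genes and 6 to 7 called members for eWAT HF against LF, 3075 to 5314 and 3 to 6 for HFLF against HF (3 without HF 4 or HFLF 4), and 0 to 341 and 0 for HFLF against LF (0 genes without LF 1, 2 or 4, 341 without LF 5 and 173 without HFLF 4). In liver it gave 3786 to 5473 and 5 to 6 for HF against LF, 215 to 1036 and 0 to 2 for HFLF against HF, and 2130 to 3918 and 2 to 3 for HFLF against LF.

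With all libraries, eWAT HFLF against LF gave 94 called genes, but 704 with DESeq2, 679 and 1 member with limma, 50 with the 2 groups alone and 6 without the 6 eWAT libraries. Without these, HFLF against HF gave 1390 genes and 0 members. The adipocyte covariate gave 4148 genes and 4 members for HF against LF, 520 and 2 for HFLF against HF, and 780 and 1 for HFLF against LF. Liver HFLF against HF, at 735 genes, gave 1312 with DESeq2, 1758 and 3 members with limma, 1181 with 2 groups alone, and 1355 and 2 without LF 1 to 4. Without LF 1 and 2, HF against LF gave 2742 genes and HFLF against LF 1396 and 1 member. Without LF 1 to 4 they gave 297 and 26 genes and 1 member each, and the tissue difference gave 3025 genes for HF against LF and 1 gene and 0 members for HFLF against LF. With limma the tissue difference gave 1900 genes and 4 members for HFLF against LF, and 6 members for HFLF against HF. Fewer libraries are part of each left-out setting, and the cause was not tested.

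Signs changed mostly near 0: eWAT Mgll HF against LF (-0.088 without HF 6 to 0.16 without HF 3, and -0.063 without the 6 libraries) and HFLF against HF (-0.013 without HF 3 to 0.23 without HF 6), Pde3b and Adora1 in HFLF against LF (0.0034 without LF 2, and 0.074 without the 6), and liver Pnpla2 in HF against LF (-0.060 without LF 6 to 0.067 without LF 1, with 5 of 18 below 0). The covariate gave -0.29 for Pnpla3, -0.46 for Mgll and -0.10 for Plin1 in eWAT HFLF against HF. Without liver LF 1 to 4, Abhd5 was at 0.17 in HFLF against LF, and the tissue difference was -0.16 for Abhd5 (HF against LF) and 0.14 for Mgll (HFLF against LF).

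The upper-quartile scaling moved the share of higher calls from 46.9% to 61.2% (liver HF against LF), from 45.1% to 61.7% (liver HFLF against LF) and from 42.1% to 53.6% (eWAT HFLF against HF). Replicate numbers are shared by the groups, but same-numbered libraries correlated at -0.61 to 0.571 within tissues, so the numbers were not taken to pair them. With the replicate block, eWAT HFLF against LF gave 15 genes and liver HFLF against HF 444. It also ended the calls of Abhd5 in eWAT HF against LF (adjusted p = 0.0853) and of Adrb3 in liver HFLF against LF (0.0676), gave Pde3b a call in liver HF against LF (0.0455), and changed no other member's call. Within tissues 0 to 2 of 6 libraries correlated best with their own number. Between liver and eWAT 5 of 6 did in LF, 2 of 6 in HF and 1 of 6 in HFLF. Whether such pairs share a mouse is not given, and the joint fit of 36 libraries took all libraries as independent. If they do share one, the p-values of the tissue difference do not allow for it.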
